A study of Homo sapiens with 31 samples.

Results

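The interval from 3 to 6 h after growth factor release was examined in MCF10A, a line of non-transformed epithelial cells from human breast that stops cycling without growth factors. The comparison set the 3 libraries of cells kept in full medium with vehicle (0.1% DMSO) for 6 h against the 3 libraries of cells kept in it for 3 h, so 6 of the 31 libraries of the series were its members, chosen by their labelled time and treatment. Before release all cells had been starved for 2 to 3 days in medium with 0.5 µg/mL hydrocortisone, 100 ng/mL cholera toxin and 0.3% bovine serum albumin. Full medium kept the hydrocortisone and cholera toxin and added 5% horse serum, 20 ng/mL EGF and 10 µg/mL insulin. The 3 starved libraries at 0 h and the 3 DMSO libraries at 9 h gave the levels on either side of the interval. The labels name DMSO for the 3, 6 and 9 h libraries and not for those at 0 h. Comparisons with 0 h therefore carry the change of medium and the vehicle together. No genotype, transgene or other drug differed between these 4 groups. The series followed entry into the cell cycle, and the comparison asks which transcripts of the early response were given up and which began to accumulate between 3 and 6 h.

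As background, growth factors acting on receptors such as the EGF receptor activate the ERK kinases, which switch on immediate early genes within minutes without new protein synthesis. Many of these encode transcription factors (FOS, JUN, EGR and NR4A proteins), and the response is shut down by phosphatases, Sprouty proteins and mRNA decay factors made in the same wave. Delayed early genes follow, among them cyclin D1 and genes for ribosome assembly and metabolism, before E2F-driven replication genes appear in late G1.

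The 6 libraries held 12255639 to 20878364 gene counts each, out of a range of 10342358 to 20878364 over all 31. Mitochondrial transcripts took 3.17 to 3.59% of counts at 6 h and 3.51 to 3.95% at 3 h. Of 56269 gene names in the tables, 15787 passed a filter on low counts and were tested. Levels are given as CPM, each gene's share of its library's counts after TMM scaling, in the order of replicates 1, 2 and 3, and each adjusted p is from edgeR's quasi-likelihood test with Benjamini-Hochberg adjustment over the 15787 genes. The labels do not state whether the replicates came from separate cultures. The p-values therefore measure only how far libraries of a group spread, estimated over all 31 libraries, and that spread may be technical. Scaled counts show shares of the messenger RNA. In such bulk samples fewer cells with a transcript and less of it per cell cannot be told apart.

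Replicates 2 and 3 lay at opposite ends of the main axis of within-group variation, at 6 h as well as at 3 h. Replicate 2 scored 11.9 at 3 h and 11.6 at 6 h, replicate 3 scored -10.2 and -9.2, and replicate 1 scored -1.7 and -2.4. At 3 h, replicate 2 was also the library that most often lay nearest to the 6 h mean. Among the 1615 genes that fell by at least 2-fold, replicate 2 was the 3 h library nearest to the 6 h mean in 57% of genes, replicate 3 in 27.1% and replicate 1 in 15.9%. Among the 736 genes that rose by at least 2-fold the shares were 52.2%, 25.8% and 22%. Each library was also placed on a scale running from the 3 h mean (0) to the 6 h mean (100). The median position of replicate 2 at 3 h was 7.4 for rising and 5.9 for falling genes. These genes were chosen for a step of at least 2-fold in the same libraries, so a small offset was likely from the start. Without each of the 6 libraries in turn, 727 to 878 genes rose and 1394 to 1634 fell by at least 2-fold. The counts at any size of change without each library stand in the closing section.

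In these 3 h 9092 of the tested genes changed (57.6%). At an adjusted p below 0.05, 4388 genes rose (27.8% of those tested) and 4704 fell (29.8%), against 5442 and 3900 when libraries were scaled by their totals alone. The shares of 27.8% and 29.8% are the base against which every count of list members below has to be read. The falls were the larger changes: 1615 genes (10.2%) were lower by at least 2-fold at 6 h and 736 (4.66%) were higher by at least 2-fold. The median log2 change of all tested genes was -0.03. It was 0.07 under that scaling, a shift of all genes against which the smaller changes below have to be read. The 3 libraries at 6 h lay entirely above the 3 at 3 h for 28.3% of genes and entirely below them for 31.1%.

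Genes of the immediate early class, most of them for transcription factors, fell almost as a body. The list also holds other early genes, such as ARC and IER3. Of the 26 on the list, 24 fell, 18 of them by at least 2-fold, 1 rose (EGR1) and 1 was not called (JUN). Their median log2 changes were 1.71 from 0 to 3 h, -1.48 from 3 to 6 h and -0.09 from 6 to 9 h. NR4A3, an orphan nuclear receptor, had the largest fall among genes whose mean log2 CPM was at least 1. It had 0.389, 0.193 and 0.0773 CPM at 6 h, against 20.6, 15.1 and 18.7 CPM at 3 h, and the starved cells had 0.0655, 0.115 and 0.0597 CPM. The 3 h libraries stood far above those of 0, 6 and 9 h. The summed counts were 10 at 6 h and 749 at 3 h (log2 fold change -6.34, SE 0.28, adjusted p = 4.2e-18, 80.9-fold lower).

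FOSB, a partner of JUN proteins in the AP-1 factor, had 3.04, 2.41 and 4.09 CPM at 6 h, against 121, 76.1 and 115 CPM at 3 h (log2 fold change -5.07, SE 0.17, adjusted p = 6e-21, 33.5-fold lower). Its 6 h values lay slightly above the 1.83, 1.1 and 1.73 CPM of starved cells. NR4A1, another orphan receptor of the family, had 0.779, 0.867 and 0.541 CPM at 6 h, against 31.9, 14.4 and 20.6 CPM at 3 h (log2 fold change -4.87, SE 0.31, adjusted p = 1.6e-14). The zinc finger factor EGR3 had 5.06, 5.01 and 5.87 CPM at 6 h, against 96.9, 54.5 and 95.2 CPM at 3 h (log2 fold change -3.95, SE 0.21, adjusted p = 1.9e-16). EGR4 had 1.17, 1.01 and 1.31 CPM at 6 h, against 19.8, 15 and 16 CPM at 3 h (log2 fold change -3.87, SE 0.21, adjusted p = 3.6e-16). In these 4 genes and in NR4A3, replicate 2 was the lowest of the 3 h libraries, and no 6 h library reached it.

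Other factors of the class were still well expressed at 6 h. SRF, the serum response factor that binds the CArG box of immediate early promoters, had 102, 106 and 104 CPM at 6 h, against 354, 389 and 340.4 CPM at 3 h, a 3.48-fold fall (log2 fold change -1.80, SE 0.07, adjusted p = 2.2e-20). The AP-1 subunit JUNB had 130.4, 132 and 129 CPM at 6 h, against 536, 419 and 446 CPM at 3 h (log2 fold change -1.84, SE 0.11, adjusted p = 6.5e-15), and 14.2% of its exonic bases overlap an opposite-strand gene, whose reads these counts cannot separate. JUND had 49.2, 49.5 and 44.7 CPM at 6 h, against 222, 185 and 188 CPM at 3 h (log2 fold change -2.05, SE 0.08, adjusted p = 2.6e-19). MAFF, a small Maf protein, had 41.7, 42.7 and 43.3 CPM at 6 h, against 206, 154 and 173 CPM at 3 h (log2 fold change -2.06, SE 0.09, adjusted p = 2.3e-18). FOSL1, another AP-1 subunit, had 211, 224 and 206 CPM at 6 h, against 477, 428 and 426 CPM at 3 h (log2 fold change -1.05, SE 0.07, adjusted p = 1.2e-14). Its 6 h level was far above the 12.4, 9.58 and 9.91 CPM of starved cells.

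The changes of FOS and MYC were smaller, and that of EGR1 had the opposite sign. FOS had 45.3, 44.9 and 41.2 CPM at 6 h, against 64.2, 62.4 and 56.1 CPM at 3 h, a fall (log2 fold change -0.48, SE 0.15, adjusted p = 0.0087), and all starved libraries were higher, at 158, 76 and 164 CPM. MYC, which drives growth genes with its partner MAX, had 577, 609.8 and 523 CPM at 6 h, against 788, 836 and 733 CPM at 3 h (log2 fold change -0.46, SE 0.11, adjusted p = 0.00034), and 382, 224 and 356 CPM at 0 h. EGR1 rose: it had 169.5, 164 and 171 CPM at 6 h, against 70.3, 51.1 and 69.3 CPM at 3 h (log2 fold change 1.42, SE 0.38, adjusted p = 0.0021). Its libraries did not overlap between the times. Starved cells had 143, 8.08 and 131 CPM, with replicate 2 far below the others, and the fit shares 1 estimate of spread over all groups. JUN, named after its values were seen, had 229, 222 and 201 CPM at 6 h, against 243, 230.3 and 227 CPM at 3 h (log2 fold change -0.10, SE 0.16, adjusted p = 0.6), with overlapping libraries.

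Promoter sequences of 4 immediate early genes are shown because they carry the elements for which this class is known. Each window runs from 250 bases before to 50 bases after the RefSeq start (GRCh38.p14) on the strand of the gene, here always the plus strand. Capitals mark the serum response element (CArG box) in SRF (chr6:43171019-43171318) and EGR1 (chr5:138465229-138465528), the letters TATAAA in FOSB (chr19:45467746-45468045), and TGACG or its reverse complement CGTCA, the core of the cAMP response element, in NR4A3 (chr9:99821635-99821934).
SRF: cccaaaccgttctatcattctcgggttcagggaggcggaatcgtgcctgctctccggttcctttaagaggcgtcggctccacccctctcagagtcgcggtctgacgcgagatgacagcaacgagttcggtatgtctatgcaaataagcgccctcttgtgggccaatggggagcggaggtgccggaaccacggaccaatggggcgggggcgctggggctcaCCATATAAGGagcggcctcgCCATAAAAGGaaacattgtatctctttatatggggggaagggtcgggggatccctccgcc
EGR1: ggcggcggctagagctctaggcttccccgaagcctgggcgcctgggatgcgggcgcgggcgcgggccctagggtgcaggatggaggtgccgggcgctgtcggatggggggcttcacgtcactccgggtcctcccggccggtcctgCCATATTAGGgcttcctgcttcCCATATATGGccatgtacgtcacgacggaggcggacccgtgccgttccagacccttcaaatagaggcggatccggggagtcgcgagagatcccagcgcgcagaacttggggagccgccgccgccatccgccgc
FOSB: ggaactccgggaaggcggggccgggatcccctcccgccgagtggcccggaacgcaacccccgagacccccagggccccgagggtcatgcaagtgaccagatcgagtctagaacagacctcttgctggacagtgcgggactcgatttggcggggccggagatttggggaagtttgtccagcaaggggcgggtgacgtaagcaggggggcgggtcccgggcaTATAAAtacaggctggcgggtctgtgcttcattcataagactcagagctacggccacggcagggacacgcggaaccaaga
NR4A3: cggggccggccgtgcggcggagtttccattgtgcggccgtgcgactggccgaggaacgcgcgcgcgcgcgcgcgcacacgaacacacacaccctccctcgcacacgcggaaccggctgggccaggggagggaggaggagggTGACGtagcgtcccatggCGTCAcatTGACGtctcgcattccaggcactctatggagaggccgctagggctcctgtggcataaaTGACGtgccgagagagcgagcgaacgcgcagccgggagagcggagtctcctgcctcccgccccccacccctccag
Both CArG boxes of SRF begin within 30 bases of the start (-30 and -10), and those of EGR1 begin at -105 and -83; SRF fell and EGR1 rose. Of 20 immediate early genes with a window, 65% held TGACG on either strand, against 33.7% of the 11101 tested genes with a window and 25% of all 27305 windows. TATAAA stood in 15% of them (4.04% of tested genes, 7.71% of all windows). The serum response element stood in 10% (1.08% of tested genes, 1.29% of all windows), the 2 windows of SRF and EGR1. TGACG includes every full cAMP response element TGACGTCA, which was in 10% of the class. In the other lists searched, TGACG stood in 30.8% (FoxO and quiescence genes) to 52.6% (chaperones) of windows. Its share was 29% among genes lower by at least 2-fold and 27.9% among those higher. Such matches describe letters in these windows and do not show that a factor bound them.

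**Figure D1:**
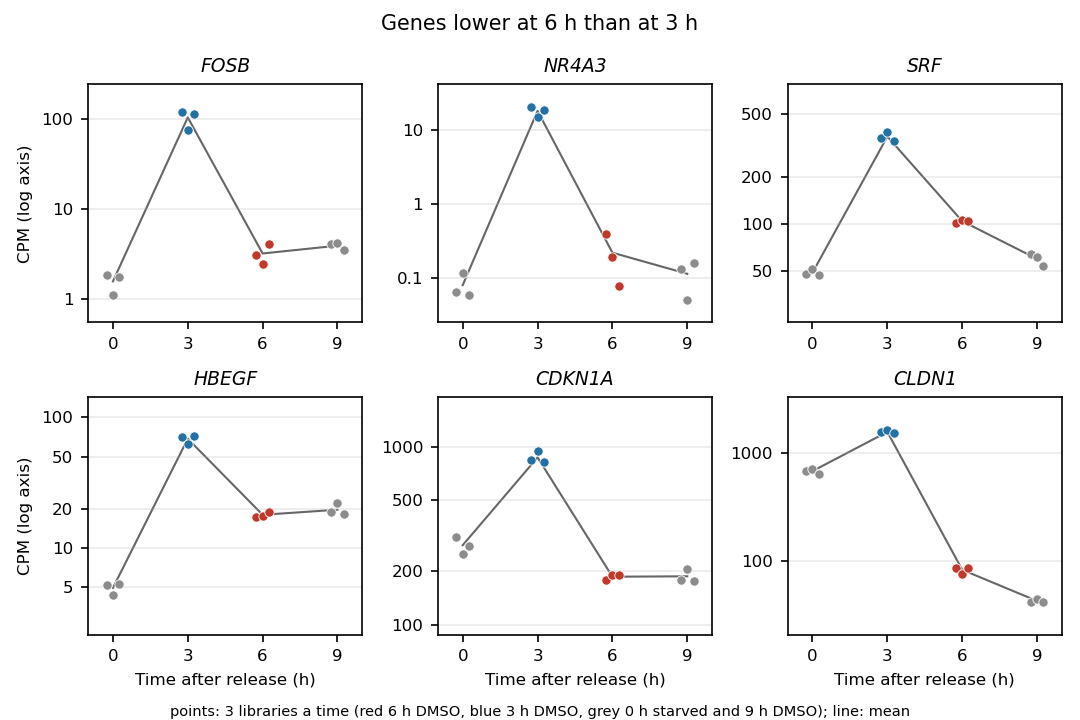
CPM on a log axis of FOSB, NR4A3, SRF, HBEGF, CDKN1A and CLDN1 in each library at 0 h (starved), 3, 6 and 9 h (DMSO), with the mean as a line. In every panel the 3 red points (6 h) lie below the 3 blue points (3 h), by 3.48-fold for SRF and 80.9-fold for NR4A3.

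Most genes of the negative feedback on ERK signalling fell as well, and a few rose. Of 22 feedback and ETS target genes, 15 fell and 4 rose (median log2 change -0.78). SPRY4, a Sprouty protein that restrains receptor signalling, had 109, 109 and 126 CPM at 6 h, against 377, 318 and 384 CPM at 3 h (log2 fold change -1.65, SE 0.08, adjusted p = 4.1e-17). The dual specificity phosphatases, which dephosphorylate MAP kinases, followed: DUSP5 had 63.9, 57 and 62.3 CPM at 6 h, against 340.1, 226 and 350.3 CPM at 3 h (log2 fold change -2.32, SE 0.12, adjusted p = 1.6e-16). DUSP10 had 9.42, 10.6 and 10.9 CPM at 6 h, against 58.6, 40.5 and 59.1 CPM at 3 h (log2 fold change -2.34, SE 0.11, adjusted p = 8.4e-18). DUSP6, the phosphatase specific to ERK, had 72.6, 72 and 59.6 CPM at 6 h, against 188, 127 and 169 CPM at 3 h (log2 fold change -1.24, SE 0.09, adjusted p = 6.3e-13), though 40.5% of its exonic bases overlap an opposite-strand gene. PHLDA1, an early response gene, fell to 180.4, 186 and 189 CPM at 6 h, against 414, 389 and 399.9 CPM at 3 h (log2 fold change -1.11, SE 0.06, adjusted p = 2.2e-16).

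The risers of this list were SPRY1, ETV4, ETV5 and CCND1. SPRY1, another Sprouty gene, had 5.84, 4.77 and 5.33 CPM at 6 h, against 0.584, 0.914 and 0.592 CPM at 3 h (log2 fold change 2.85, SE 0.26, adjusted p = 5.2e-11), the opposite of SPRY4. Its levels averaged 5.53 CPM at 0 h, 0.697 CPM at 3 h, 5.31 CPM at 6 h and 2.31 CPM at 9 h, so it was lowest at 3 h. ETV4 and ETV5 are ETS factors induced by sustained ERK signalling. ETV4 had 2.8, 3.47 and 2.63 CPM at 6 h, against 1, 1.24 and 1.1 CPM at 3 h (log2 fold change 1.42, SE 0.21, adjusted p = 5.8e-07). ETV5 had 11.1, 10.9 and 10.7 CPM at 6 h, against 7.42, 8.98 and 6.43 CPM at 3 h (log2 fold change 0.49, SE 0.13, adjusted p = 0.0022).

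Ligands of the EGF receptor, made by the cells themselves, fell while the transcript of that receptor, EGFR, was not called. Of 10 family members tested, 7 fell and 1 rose, and the falls included the related receptors ERBB3 and ERBB2. HBEGF had 17.4, 17.5 and 18.9 CPM at 6 h, against 71.3, 63.1 and 71.6 CPM at 3 h (log2 fold change -1.94, SE 0.08, adjusted p = 1.4e-18), epiregulin (EREG) had 9.35, 11.5 and 10.1 CPM at 6 h, against 63.2, 42.7 and 54.6 CPM at 3 h (log2 fold change -2.35, SE 0.12, adjusted p = 1.3e-16). Amphiregulin (AREG) had 95.1, 95.2 and 73 CPM at 6 h, against 365, 255 and 298 CPM at 3 h (log2 fold change -1.80, SE 0.11, adjusted p = 1.3e-14). Epigen (EPGN) fell by a log2 of 1.13. All 4 ligands remained above their starved levels, which were 5.24, 4.33 and 5.25 CPM for HBEGF and 2.16, 2.02 and 2.51 CPM for EREG. Neuregulin 1 (NRG1), a ligand of ERBB3 and ERBB4, was the riser, with 5.45, 6.99 and 8.04 CPM at 6 h, against 1.42, 3.23 and 2.54 CPM at 3 h (log2 fold change 1.46, SE 0.23, adjusted p = 2e-06). EGFR, named after its values were seen, had 1065, 1085 and 1105 CPM at 6 h, against 1150, 1026 and 1164 CPM at 3 h (log2 fold change -0.04, SE 0.06, adjusted p = 0.61).

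Secreted signals split by gene. Of 14 cytokine and chemokine genes tested, 7 fell and 3 rose. IL24 had 5.84, 5.78 and 4.79 CPM at 6 h, against 28.2, 29.9 and 28.6 CPM at 3 h (log2 fold change -2.39, SE 0.14, adjusted p = 9.4e-16), LIF had 12.3, 14.5 and 17.8 CPM at 6 h, against 71.6, 54.7 and 57.9 CPM at 3 h (log2 fold change -2.05, SE 0.13, adjusted p = 3e-14). Neutrophil attractants of the CXC chemokine family parted, with CXCL2 and CXCL3 lower and CXCL8 and CXCL1 higher. CXCL2 had 10.4, 9.97 and 8.11 CPM at 6 h, against 33.1, 35.8 and 24.1 CPM at 3 h (log2 fold change -1.71, SE 0.16, adjusted p = 1.2e-10). CXCL3 had 5.29, 5.2 and 4.25 CPM at 6 h, against 14.5, 15.1 and 14.7 CPM at 3 h (log2 fold change -1.58, SE 0.16, adjusted p = 3.9e-10). CXCL8 (interleukin 8) had 30.5, 28.9 and 25.7 CPM at 6 h, against 10.0, 14.4 and 8.97 CPM at 3 h (log2 fold change 1.31, SE 0.12, adjusted p = 5e-11). CXCL1 had 17.1, 18.4 and 17.8 CPM at 6 h, against 9.26, 13.7 and 8.21 CPM at 3 h (log2 fold change 0.74, SE 0.14, adjusted p = 4.1e-05). CSF3, the granulocyte growth factor, had 49.5, 52.7 and 39.4 CPM at 6 h, against 28.9, 36.4 and 24.4 CPM at 3 h (log2 fold change 0.65, SE 0.11, adjusted p = 7.1e-06). Genes of the NF-kB list (subunits, inhibitors and other members such as ICAM1, TRAF1 and BIRC3) fell in 12 of 16 cases and rose in 1 (median log2 change -0.53). BCL3, an unusual IkB protein, had the smallest p among those lower, with 20.9, 21.4 and 25.6 CPM at 6 h, against 60.6, 59.5 and 59.7 CPM at 3 h (log2 fold change -1.41, SE 0.10, adjusted p = 6.3e-14). BIRC2 was the member called higher (log2 fold change 0.18, SE 0.07, adjusted p = 0.028), with overlapping libraries, and its adjusted p was 0.13 without replicate 2 at 6 h and 0.069 without replicate 1 at 3 h, 0.061 when only the 6 libraries were fitted and 0.11 with no filter on low counts; without replicate 3 at 6 h, 2 members were called higher. Of 10 mRNA decay factors, 6 fell and 1 rose. BTG1 had 104, 97 and 108 CPM at 6 h, against 436, 371 and 389.9 CPM at 3 h (log2 fold change -1.96, SE 0.06, adjusted p = 1e-21). BTG2, its antiproliferative relative, had 21.6, 20.4 and 19.6 CPM at 6 h, against 18.2, 11 and 15.3 CPM at 3 h (log2 fold change 0.50, SE 0.11, adjusted p = 0.00032).

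Genes that respond to cell shape and tension changed in part. Of 19 targets of YAP and TGF-beta, 13 fell and 2 rose (AJUBA and LTBP2; median log2 change -0.40). CYR61, a matricellular protein, had 60.6, 62.6 and 66.1 CPM at 6 h, against 387, 339 and 339 CPM at 3 h (log2 fold change -2.49, SE 0.14, adjusted p = 5.6e-16). LATS2, a kinase that restrains YAP, had 54.7, 55 and 50.1 CPM at 6 h, against 156, 122 and 134 CPM at 3 h (log2 fold change -1.36, SE 0.07, adjusted p = 1.9e-16). Endothelin 1 (EDN1) had 29.98, 27.8 and 37.2 CPM at 6 h, against 75.8, 76.1 and 71.2 CPM at 3 h (log2 fold change -1.24, SE 0.09, adjusted p = 2.1e-13).

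Most actin genes went on rising. Of 22 cytoskeletal SRF target genes 14 rose and 3 fell, with a median log2 change of 0.19 after 1.58 from 0 to 3 h. Tropomyosin 3 (TPM3) had 632, 679.6 and 611 CPM at 6 h, against 405, 472 and 376 CPM at 3 h (log2 fold change 0.62, SE 0.07, adjusted p = 6e-09). The large fall in this list was FHL2, a LIM protein that acts as a coregulator, with 67, 67.7 and 70.3 CPM at 6 h, against 327, 309 and 287 CPM at 3 h (log2 fold change -2.17, SE 0.09, adjusted p = 2.1e-19). Zyxin (ZYX) and vinculin (VCL) fell by log2 changes of -0.45 and -0.22, and VCL was not called without replicate 2 at 3 h (adjusted p = 0.18) or under library totals (adjusted p = 0.075).

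Adhesion and protease genes changed by gene rather than by class. CLDN1 (chr3:190305701-190322475, GRCh38), a claudin of tight junctions, fell strongly. It had 87.1, 76.3 and 87.2 CPM at 6 h, against 1529, 1615 and 1498 CPM at 3 h (log2 fold change -4.22, SE 0.07, adjusted p = 1.6e-28, 18.6-fold lower), and by 9 h it had 42.7, 44.6 and 42.3 CPM. PHLDB2, a cell cortex protein at focal adhesions, had 84.8, 89 and 100.0 CPM at 6 h, against 1309, 983 and 1314 CPM at 3 h (log2 fold change -3.72, SE 0.09, adjusted p = 3.3e-25), a transient peak above the 74.9, 90.7 and 75 CPM of starved cells. Of 15 plasminogen and matrix protease genes, 5 fell and 2 rose, and the falls were near the 29.8% of all tested genes. The urokinase receptor PLAUR had 50.2, 49.4 and 53 CPM at 6 h, against 134, 123 and 140.5 CPM at 3 h (log2 fold change -1.38, SE 0.07, adjusted p = 9.9e-18). Urokinase itself (PLAU, with 31.1% of its exonic bases overlapping an opposite-strand gene) had 37.7, 39.9 and 37.2 CPM at 6 h, against 115, 92.6 and 113 CPM at 3 h (log2 fold change -1.48, SE 0.08, adjusted p = 3.1e-16). The protease inhibitor SERPINE2 moved the other way, with 59.3, 62.8 and 63.3 CPM at 6 h, against 8.68, 12.7 and 9.22 CPM at 3 h (log2 fold change 2.56, SE 0.10, adjusted p = 1.8e-19). So did the metalloprotease ADAMTS1, with 7.94, 8.58 and 8.27 CPM at 6 h, against 0.918, 2.74 and 1.27 CPM at 3 h (log2 fold change 2.22, SE 0.20, adjusted p = 4.3e-11).

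Receptors for the matrix changed by less than 2-fold, and 4 connexin and channel genes by at least 2-fold. Of 14 laminin and integrin genes 4 rose, near the 27.8% of all tested genes, and 6 fell, none by 2-fold. ITGA6 had 1634, 1675 and 1595 CPM at 6 h, against 982, 1097 and 982 CPM at 3 h (log2 fold change 0.68, SE 0.05, adjusted p = 8e-13). The fibronectin receptor subunit ITGA5 had 693, 692 and 787 CPM at 6 h, against 1033, 1305 and 1141 CPM at 3 h (log2 fold change -0.68, SE 0.06, adjusted p = 9.5e-11). Of 7 connexin and epithelial sodium channel genes, 5 fell, 3 of them by at least 2-fold, and 2 rose, 1 by at least 2-fold (median log2 change -0.90). The channel subunits parted: SCNN1A had 152, 165 and 136 CPM at 6 h, against 400.5, 355 and 348 CPM at 3 h (log2 fold change -1.28, SE 0.07, adjusted p = 5.7e-17). SCNN1G had 24.4, 22.4 and 18.8 CPM at 6 h, against 5.92, 4.73 and 5.41 CPM at 3 h (log2 fold change 2.05, SE 0.10, adjusted p = 5.6e-17).

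A second group of falling genes had already been falling since release. Of 28 FoxO targets and quiescence genes 25 fell and 1 rose, 19 of the falls by at least 2-fold, and the median log2 changes were -1.24 from 0 to 3 h, -1.35 from 3 to 6 h and -0.15 from 6 to 9 h. YPEL3, a growth-restraining gene, had 8.33, 8.24 and 8.88 CPM at 6 h, against 60.8, 58.3 and 58.6 CPM at 3 h (log2 fold change -2.81, SE 0.09, adjusted p = 5.1e-22). PDK4, the kinase that shuts off pyruvate dehydrogenase in fasted cells, had 5.61, 5.69 and 3.48 CPM at 6 h, against 87.8, 43.9 and 92.9 CPM at 3 h (log2 fold change -3.88, SE 0.20, adjusted p = 8.1e-17), after 748, 644 and 729 CPM at 0 h. TSC22D3, a glucocorticoid-responsive leucine zipper gene, had 10.2, 10.2 and 8.19 CPM at 6 h, against 58.6, 51.4 and 55.7 CPM at 3 h (log2 fold change -2.52, SE 0.09, adjusted p = 8.5e-21), after 923, 936 and 890.1 CPM at 0 h. BCL6, a repressor, had 12.3, 12.2 and 13.8 CPM at 6 h, against 73.4, 59 and 66.1 CPM at 3 h (log2 fold change -2.37, SE 0.09, adjusted p = 1.4e-19). IRS2, an adaptor of the insulin receptor named after its values were seen, had 48.7, 42.9 and 44.2 CPM at 6 h, against 387, 237 and 333 CPM at 3 h (log2 fold change -2.82, SE 0.12, adjusted p = 3.1e-19). The riser was SESN1, a stress gene that restrains mTORC1, at 10.2, 8.87 and 8.96 CPM at 6 h, against 6.51, 6.83 and 7.95 CPM at 3 h (log2 fold change 0.40, SE 0.10, adjusted p = 0.0016), after 64, 65.7 and 59.6 CPM at 0 h.

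Members of related groups fell in the same interval. Of 23 lysosome and autophagy genes 16 fell and 2 rose, or 1 rose without replicate 2 at 6 h or replicate 1 or 3 at 3 h. ULK1, the kinase that starts autophagy, had 14.3, 13.8 and 15 CPM at 6 h, against 96.4, 72.6 and 84 CPM at 3 h (log2 fold change -2.55, SE 0.10, adjusted p = 4.4e-20). The autophagy receptor SQSTM1 had 169.8, 169.8 and 161 CPM at 6 h, against 455, 435 and 415 CPM at 3 h (log2 fold change -1.38, SE 0.05, adjusted p = 3.1e-20), with 22% of its exonic bases overlapping an opposite-strand gene. The cholesterol exporter NPC1 had 87.1, 87 and 90.1 CPM at 6 h, against 234, 225 and 235 CPM at 3 h (log2 fold change -1.40, SE 0.05, adjusted p = 4.5e-21). Of 28 interferon and antigen presentation genes 20 fell and 2 rose (median log2 change -0.35), and 13 fell without replicate 3 at 6 h or replicate 2 at 3 h. The signal transducer STAT2 had 39.6, 40.8 and 48.7 CPM at 6 h, against 101, 100.5 and 106 CPM at 3 h (log2 fold change -1.25, SE 0.07, adjusted p = 1.6e-15). Among 17 clock genes 8 fell and 1 rose; the nuclear receptor NR1D2 had 20.1, 19.8 and 19.9 CPM at 6 h, against 68.2, 47.5 and 66.8 CPM at 3 h (log2 fold change -1.60, SE 0.12, adjusted p = 2.7e-13). CLOCK had 83.2, 90.2 and 90.9 CPM at 6 h, against 60.1, 59.4 and 64.3 CPM at 3 h (log2 fold change 0.53, SE 0.07, adjusted p = 9.7e-08). Of 13 polyadenylated histone transcripts 8 fell and none was called higher. None was called higher by DESeq2, and 0 had a rise with an unadjusted p below 0.05.

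KDR, the receptor for VEGF, also belonged to the genes lost since release. It had 0.311, 0.434 and 0.773 CPM at 6 h, against 23.9, 10.8 and 23.8 CPM at 3 h (log2 fold change -5.24, SE 0.32, adjusted p = 4.9e-15), after 88.9, 85.2 and 93 CPM at 0 h. As a marker of endothelium it was checked with its list: of 10 blood and endothelial markers, only KDR and PECAM1 passed the filter, their summed CPM was 1.4 to 1.85 at 6 h and 12.4 to 27.1 at 3 h, and PTPRC, CD3E, LYZ, HBB, HBA1, CDH5 and VWF had 0 to 3 counts in the 3 libraries of either time. PECAM1 fell to 1.09, 0.964 and 1.08 CPM at 6 h, against 2.67, 1.61 and 3.3 CPM at 3 h (log2 fold change -1.24, SE 0.28, adjusted p = 0.00027).

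The p53 target list fell in 19 of 26 members and rose in 5 (median log2 change -0.75). CDKN1A (chr6:36676460-36687339, GRCh38), which encodes the CDK inhibitor p21, had 179, 189.9 and 191 CPM at 6 h, against 842, 946 and 820.1 CPM at 3 h (log2 fold change -2.22, SE 0.08, adjusted p = 8.5e-21, 4.66-fold lower). Its levels averaged 280.3 CPM at 0 h, 869 CPM at 3 h, 187 CPM at 6 h and 188 CPM at 9 h, so the 3 h libraries marked a peak. GDF15, a stress cytokine named after its values were seen, had 1.87, 3.13 and 3.55 CPM at 6 h, against 19, 19.2 and 18.2 CPM at 3 h (log2 fold change -2.70, SE 0.16, adjusted p = 2e-15). RRM2B, the p53-induced subunit of ribonucleotide reductase, had 63.5, 66.2 and 64.9 CPM at 6 h, against 166, 168 and 174 CPM at 3 h (log2 fold change -1.38, SE 0.06, adjusted p = 3.1e-18). The death receptor TNFRSF10B had 138, 138 and 124 CPM at 6 h, against 362, 288 and 354 CPM at 3 h (log2 fold change -1.33, SE 0.06, adjusted p = 1.9e-17). Among 16 BCL2 family genes 9 fell and 3 rose. The survival factor MCL1 had 1176, 1139 and 1190 CPM at 6 h, against 3034, 2710 and 3036 CPM at 3 h (log2 fold change -1.33, SE 0.06, adjusted p = 2.5e-18). The death-promoting BMF had 0.311, 0.0482 and 0.154 CPM at 6 h, against 3.17, 1.72 and 3.21 CPM at 3 h (log2 fold change -4.04, SE 0.47, adjusted p = 8.1e-09), from summed counts of 7 at 6 h and 108 at 3 h.

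**Figure D2:**
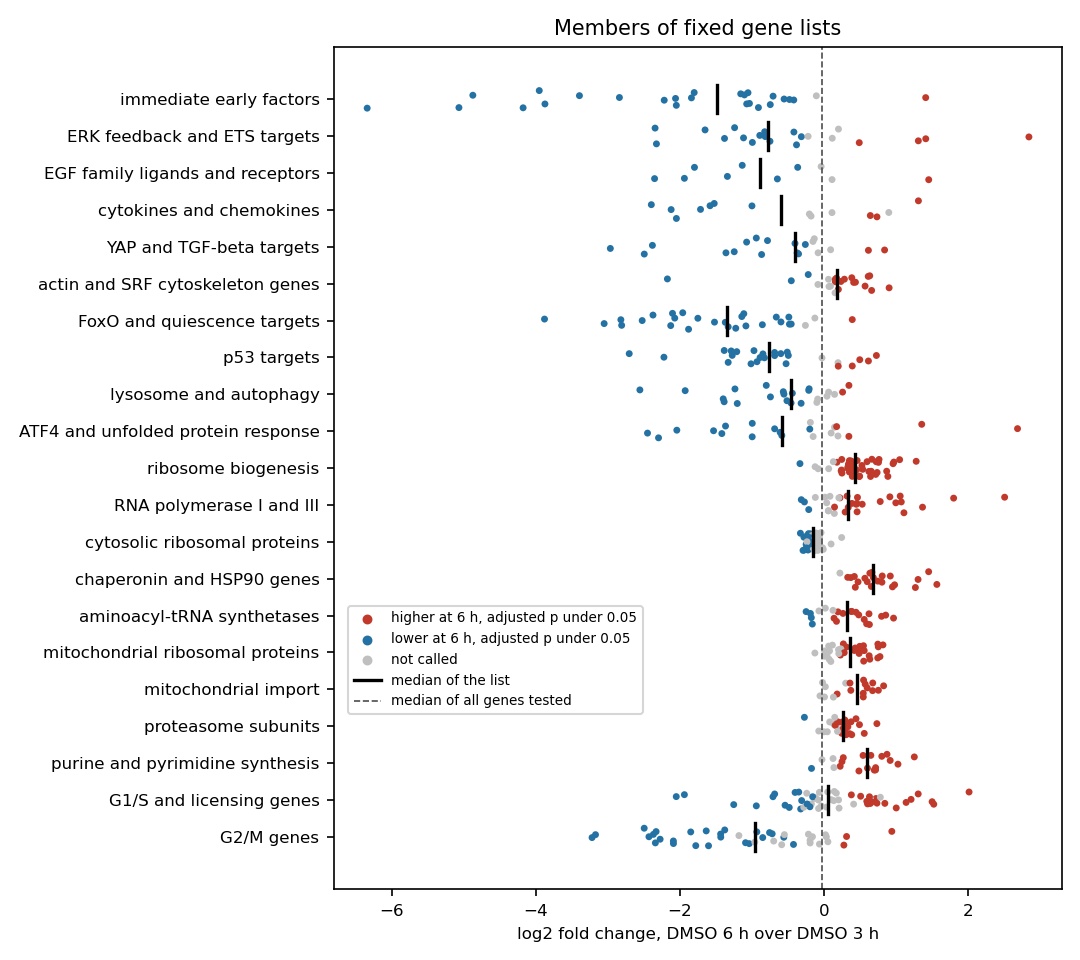
Log2 fold change of 6 h over 3 h (x axis) for every tested member of the gene lists named on the rows, coloured by call, with each list's median as a black bar and the median of all tested genes (-0.03) as a dashed line. Immediate early genes sit mostly left of the line, with a median of -1.48, and the chaperone, nucleotide and ribosome assembly lists sit right of it.

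Most ribosome biogenesis factors went on rising. Of 44 ribosome biogenesis factors, 39 rose and 1 fell, by modest amounts: the median log2 changes were 1.03 from 0 to 3 h, 0.44 from 3 to 6 h and -0.08 from 6 to 9 h, and 2 members passed 2-fold between 3 and 6 h. UTP20, a large component of the small subunit processome, had 235, 240.0 and 218 CPM at 6 h, against 91.4, 96.9 and 96.6 CPM at 3 h (log2 fold change 1.28, SE 0.06, adjusted p = 2e-18). WDR3 had 176, 184 and 175 CPM at 6 h, against 81.1, 95.5 and 80.4 CPM at 3 h (log2 fold change 1.05, SE 0.06, adjusted p = 3.9e-15), with 17.1% of its exonic bases overlapping an opposite-strand gene. WDR12, which acts in large subunit maturation, had 89.2, 93.3 and 85.5 CPM at 6 h, against 42.4, 49.2 and 44.6 CPM at 3 h (log2 fold change 0.97, SE 0.07, adjusted p = 4.8e-14). DDX10, an RNA helicase, had 61.3, 61.2 and 62.7 CPM at 6 h, against 31.4, 32.1 and 31.3 CPM at 3 h (log2 fold change 0.96, SE 0.06, adjusted p = 3.1e-14). NOB1, the endonuclease that completes 18S ribosomal RNA, was the member that fell (log2 fold change -0.33, SE 0.09, adjusted p = 0.0028), and 20.2% of its exonic bases overlap an opposite-strand gene.

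The window of UTP20 is shown because CACGTG, the E-box that MYC and MAX bind, was common in this class. The letters stand in capitals at -10 in chr12:101279855-101280154, plus strand, GRCh38.p14.
UTP20: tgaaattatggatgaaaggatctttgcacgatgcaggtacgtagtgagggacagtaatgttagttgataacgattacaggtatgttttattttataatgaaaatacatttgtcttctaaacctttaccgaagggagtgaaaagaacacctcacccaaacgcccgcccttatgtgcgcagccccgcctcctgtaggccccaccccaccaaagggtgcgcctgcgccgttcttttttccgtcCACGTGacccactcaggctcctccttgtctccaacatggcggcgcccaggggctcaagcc
CACGTG stood in 43.2% of the windows of 37 ribosome biogenesis genes, against 9.9% of tested genes with a window and 7.43% of all windows. In RNA polymerase I and III genes the share was 23.1% of 26 windows. It was also 23.1% of 26 windows in the FoxO and quiescence list, which fell, and 17.1% in G2/M genes. Genes higher by at least 2-fold held it in 9.16% of windows and those lower by at least 2-fold in 8.18%.

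RNA polymerases I and III, which make ribosomal and transfer RNA, had more changes of at least 2-fold, although their median log2 change was lower, at 0.34. Of 31 subunits and factors 20 rose, 7 of them by at least 2-fold, and 3 fell. POLR3G, a polymerase III subunit with a close relative, had 61.9, 71.3 and 59 CPM at 6 h, against 9.59, 12.9 and 10.8 CPM at 3 h (log2 fold change 2.51, SE 0.10, adjusted p = 3.8e-19, 5.7-fold higher). POLR3B, the second largest subunit of polymerase III, had 32.2, 31.9 and 27.9 CPM at 6 h, against 8.68, 9.46 and 8.04 CPM at 3 h (log2 fold change 1.80, SE 0.10, adjusted p = 1e-15). POLR1A and POLR1B form the catalytic core of polymerase I. POLR1A had 240.3, 238 and 242 CPM at 6 h, against 117, 120.4 and 122 CPM at 3 h (log2 fold change 1.000, SE 0.07, adjusted p = 2.9e-14). POLR1B had 144, 138 and 131 CPM at 6 h, against 64.1, 69.5 and 64.1 CPM at 3 h (log2 fold change 1.06, SE 0.06, adjusted p = 6.6e-16). The transcripts of cytosolic ribosomal proteins gave another picture: of 78, none was called higher and 29 were called lower, with a median log2 change of -0.16, and this count was 7 lower and 1 higher when libraries were scaled by their totals alone. The count of falls was 11 without replicate 3 at 6 h, 9 without replicate 1 at 3 h and 5 without replicate 2 at 3 h, where 1 member rose. RPLP0 had 1013, 1082 and 952 CPM at 6 h, against 1303, 1338 and 1175 CPM at 3 h (log2 fold change -0.32, SE 0.07, adjusted p = 0.00017). DESeq2 called 0 members higher, and 0 had a rise with an unadjusted p below 0.05.

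Chaperones rose almost as a body. Of 22 chaperonin, HSP90 and HSP70 genes, 21 rose and none fell, with a median log2 change of 0.68. HSP90AA1, the inducible cytosolic HSP90, had 2237, 2038 and 2132 CPM at 6 h, against 724, 853 and 758 CPM at 3 h (log2 fold change 1.46, SE 0.07, adjusted p = 3e-18). HSPA8, the constitutive HSP70, had 3840, 3906 and 3856 CPM at 6 h, against 1381, 1830 and 1471 CPM at 3 h (log2 fold change 1.31, SE 0.07, adjusted p = 6.8e-16). The cochaperone FKBP4 had 249.4, 272 and 264 CPM at 6 h, against 94.4, 124 and 106 CPM at 3 h (log2 fold change 1.27, SE 0.08, adjusted p = 2.2e-15). AHSA1, the activator of HSP90, had 159, 161 and 151 CPM at 6 h, against 76.2, 86.1 and 81 CPM at 3 h (log2 fold change 0.95, SE 0.07, adjusted p = 2e-13).

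Purine and pyrimidine synthesis rose in 15 of 19 genes and fell in 1, IMPDH2. The IMPDH2 call was lost without replicate 1 or 3 at 6 h or replicate 1 or 2 at 3 h (adjusted p = 0.05 to 0.23), under library totals (adjusted p = 0.28) and with no filter on low counts (adjusted p = 0.072). CAD, the first enzyme of pyrimidine synthesis, had 183, 200.3 and 213 CPM at 6 h, against 106, 109 and 109 CPM at 3 h (log2 fold change 0.88, SE 0.06, adjusted p = 3.6e-14). PFAS, an enzyme of the purine route, had 49, 48.5 and 49.8 CPM at 6 h, against 21.9, 27.8 and 21.5 CPM at 3 h (log2 fold change 1.03, SE 0.09, adjusted p = 1.3e-11). ATIC, which completes that route, had 136, 148 and 136 CPM at 6 h, against 83.3, 92 and 79.7 CPM at 3 h (log2 fold change 0.72, SE 0.06, adjusted p = 1.5e-11). MTHFD1L, the mitochondrial enzyme that supplies formate, had 124, 122 and 118 CPM at 6 h, against 55.5, 52.5 and 55.6 CPM at 3 h (log2 fold change 1.15, SE 0.05, adjusted p = 8.3e-18), although serine and one-carbon enzymes as a list rose in 4 and fell in 6 of 13 genes, or rose in 2 without replicate 2 at 6 h. The 4 rises of that list were near the 27.8% of all tested genes.

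Among mitochondrial and protein quality genes the changes were smaller. Of 34 mitochondrial ribosomal proteins 22 rose and none fell, and of 18 mitochondrial import genes 12 rose and none fell. In these lists and in the chaperones, 0 members were called lower by edgeR or DESeq2 and 0 had a fall with an unadjusted p below 0.05. The import pore gene TOMM40 had 142, 152 and 126 CPM at 6 h, against 76.3, 87.6 and 71.3 CPM at 3 h (log2 fold change 0.83, SE 0.08, adjusted p = 1.7e-10). MRPL19 had 68.1, 69 and 62.1 CPM at 6 h, against 35.5, 43 and 39.4 CPM at 3 h (log2 fold change 0.75, SE 0.06, adjusted p = 3.6e-12). Proteasome subunits rose in 21 of 31 and fell in 1, aminoacyl-tRNA synthetases rose in 15 of 22 and fell in 4, and nuclear transport genes rose in 12 of 21 and fell in 1. The 4 falling synthetases became 2 without replicate 3 at 6 h or replicate 1 or 3 at 3 h and 1 without replicate 2 at 3 h, and the falling transport gene was lost without replicate 2 at 6 h. PSMD14, the deubiquitinase of the proteasome lid, had 101, 98.7 and 93.6 CPM at 6 h, against 55.5, 64.2 and 55.8 CPM at 3 h (log2 fold change 0.74, SE 0.06, adjusted p = 1.4e-12). FARSB had 114, 119.8 and 105 CPM at 6 h, against 57.5, 65.7 and 49.3 CPM at 3 h (log2 fold change 0.97, SE 0.08, adjusted p = 2.3e-12). The export receptor XPO1 had 192, 201 and 195 CPM at 6 h, against 112, 103 and 103 CPM at 3 h (log2 fold change 0.89, SE 0.05, adjusted p = 6.7e-16). Translation initiation factors were mixed, with 16 of 36 higher and 9 lower, the falls near the 29.8% of all tested genes. EIF4E, which binds the mRNA cap, had 96.8, 108 and 91.3 CPM at 6 h, against 53.2, 70.6 and 56.6 CPM at 3 h (log2 fold change 0.71, SE 0.09, adjusted p = 6.4e-08). SR splicing factors and CLK kinases rose in 9 of 16 cases and fell in 3, and SRSF5, with 165, 173 and 159 CPM at 6 h, against 437, 405 and 400.5 CPM at 3 h (log2 fold change -1.32, SE 0.07, adjusted p = 3.4e-17), opposed SRSF3, with 317, 331.7 and 297 CPM at 6 h, against 172, 213 and 167 CPM at 3 h (log2 fold change 0.78, SE 0.07, adjusted p = 8.8e-12).

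Lipid and sugar metabolism changed enzyme by enzyme. Of 21 glycolysis and hypoxia genes 13 rose and 6 fell. LDHA, lactate dehydrogenase A, had 1283, 1349 and 1273 CPM at 6 h, against 736, 825 and 702 CPM at 3 h (log2 fold change 0.79, SE 0.07, adjusted p = 1.5e-11). The glucose transporter SLC2A1 had 50.7, 52.1 and 49.7 CPM at 6 h, against 93.3, 88.5 and 94.4 CPM at 3 h (log2 fold change -0.85, SE 0.07, adjusted p = 2e-12). Of 11 fatty acid genes 6 rose and 4 fell. The desaturase SCD had 194, 200 and 199 CPM at 6 h, against 67.2, 86.7 and 74.1 CPM at 3 h (log2 fold change 1.37, SE 0.08, adjusted p = 4.9e-15). The elongase ELOVL6 had 82.6, 87.3 and 83.8 CPM at 6 h, against 33.7, 35.5 and 35.2 CPM at 3 h (log2 fold change 1.28, SE 0.06, adjusted p = 3.5e-18). ACSL1, which activates long fatty acids, had 242, 239 and 224 CPM at 6 h, against 855, 808 and 807 CPM at 3 h (log2 fold change -1.81, SE 0.06, adjusted p = 4.5e-22). Of 26 sterol genes 5 rose and 11 fell. Squalene epoxidase (SQLE) had 189, 204 and 178 CPM at 6 h, against 139.6, 155 and 134 CPM at 3 h (log2 fold change 0.42, SE 0.08, adjusted p = 2.1e-05). Amino acid transporters fell in 7 of 12 cases and none was called higher by edgeR; SLC7A11 had 19.1, 23.2 and 22.2 CPM at 6 h, against 43.5, 44.6 and 45.9 CPM at 3 h (log2 fold change -1.05, SE 0.11, adjusted p = 9.1e-10). DESeq2 called 0 of the transporters higher, and 0 had a rise with an unadjusted p below 0.05. Polyamine genes rose in 4 and fell in 3 of 11, and the falls were near the 29.8% of all tested genes. ODC1, the first enzyme of that route, had 194, 205 and 190.4 CPM at 6 h, against 301, 296 and 282 CPM at 3 h (log2 fold change -0.58, SE 0.06, adjusted p = 4.2e-09). AZIN1, its stabilising partner, had 467, 463 and 457 CPM at 6 h, against 286, 318 and 284 CPM at 3 h (log2 fold change 0.64, SE 0.05, adjusted p = 8.6e-12).

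Stress genes of the ATF4 and unfolded protein responses fell in 12 of 21 members and rose in 4 (median log2 change -0.58). HERPUD1, which acts in degradation from the endoplasmic reticulum, had 23, 22.4 and 24.6 CPM at 6 h, against 133, 119 and 129.6 CPM at 3 h (log2 fold change -2.45, SE 0.08, adjusted p = 1.6e-21). DNAJB9 had 22.3, 23 and 21 CPM at 6 h, against 99.5, 121 and 105 CPM at 3 h (log2 fold change -2.29, SE 0.10, adjusted p = 2.4e-18). ATF4 itself had 238, 259 and 224 CPM at 6 h, against 527, 462 and 447 CPM at 3 h (log2 fold change -0.99, SE 0.07, adjusted p = 4.7e-13). DDIT4, an mTORC1 inhibitor, rose. It had 125, 125 and 92 CPM at 6 h, against 14.8, 19.7 and 18.1 CPM at 3 h (log2 fold change 2.69, SE 0.13, adjusted p = 4.3e-17), after 158, 118 and 158 CPM at 0 h, so 3 h was a trough. As 41.2% of its exonic bases overlap an opposite-strand gene, its level is uncertain.

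The largest rises were in genes with low levels at 3 h. KIAA1549L, a membrane protein of unclear role, had 13.6, 12.3 and 14.5 CPM at 6 h, against 0.417, 0.699 and 0.761 CPM at 3 h (log2 fold change 4.38, SE 0.22, adjusted p = 4.9e-17, 20.8-fold higher). TSPAN18, a tetraspanin, had 14.1, 17.6 and 16.8 CPM at 6 h, against 0.751, 1.24 and 0.423 CPM at 3 h (log2 fold change 4.22, SE 0.20, adjusted p = 1.3e-17). EGLN3, an oxygen-sensing prolyl hydroxylase, had 21.2, 20.7 and 23.9 CPM at 6 h, against 0.667, 1.94 and 1.18 CPM at 3 h (log2 fold change 4.004, SE 0.17, adjusted p = 1.6e-18). The 6 h libraries of each were tightly grouped, and no 3 h library came near them. GALNT14, an enzyme of mucin-type glycosylation, had 7.55, 10.5 and 7.73 CPM at 6 h, against 0.334, 0.645 and 0.677 CPM at 3 h (log2 fold change 3.93, SE 0.24, adjusted p = 4.6e-15). KCNQ5, a potassium channel, had 15.1, 16.8 and 17.1 CPM at 6 h, against 0.667, 1.56 and 1.1 CPM at 3 h (log2 fold change 3.79, SE 0.14, adjusted p = 5.2e-20), and it went on to 32.8, 32.2 and 33.5 CPM at 9 h. The ligand WNT10B had 8.57, 8.82 and 7.18 CPM at 6 h, against 0.834, 1.02 and 0.846 CPM at 3 h (log2 fold change 3.16, SE 0.20, adjusted p = 8.2e-15). The cyclooxygenase PTGS1 had 36.2, 37.7 and 34.6 CPM at 6 h, against 2.75, 7.31 and 3.47 CPM at 3 h (log2 fold change 2.91, SE 0.16, adjusted p = 2.2e-16). FRMD3, FAM167A, INSC, AMIGO2 and ZBED2 completed the 12 largest rises, with log2 fold changes of 2.99 to 3.70. At the other end, OVOL1, an epithelial transcription factor, had 2.57, 2.02 and 2.63 CPM at 6 h, against 40.2, 28.7 and 33.3 CPM at 3 h (log2 fold change -3.84, SE 0.17, adjusted p = 3e-18), with 27.1% of its exonic bases overlapping an opposite-strand gene. GAS2L3 and ISLR2 fell by log2 changes of -3.78 and -3.69.

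**Figure D3:**
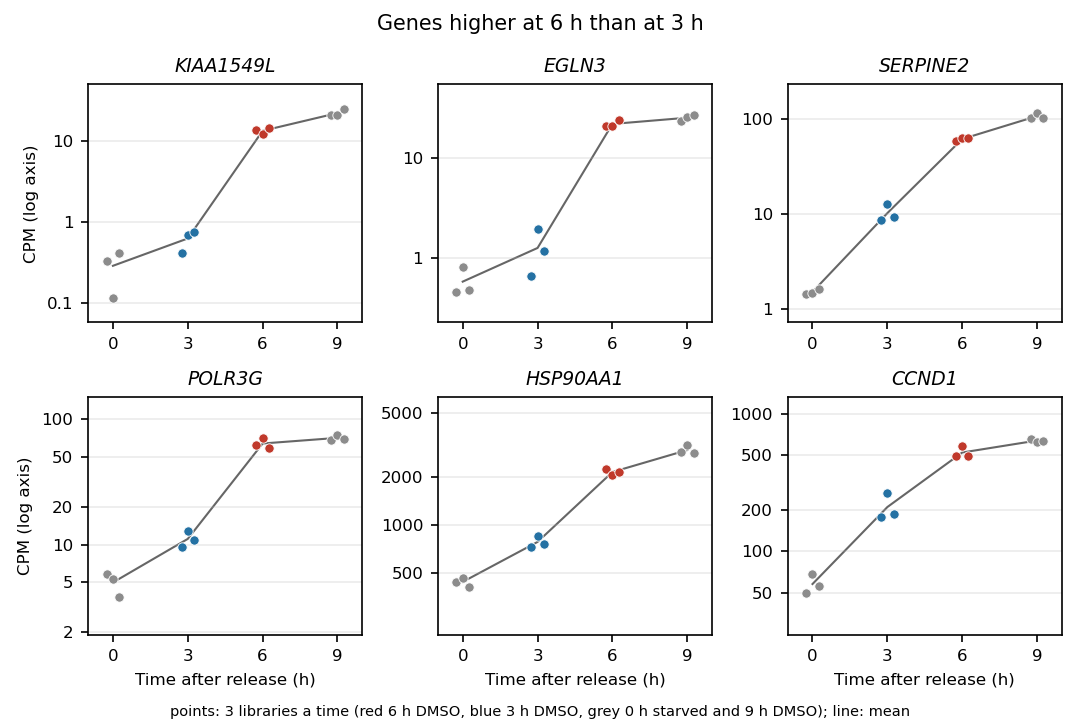
CPM on a log axis of KIAA1549L, EGLN3, SERPINE2, POLR3G, HSP90AA1 and CCND1 in each library at 0 h (starved), 3, 6 and 9 h (DMSO), with the mean as a line. In every panel the 3 red points (6 h) lie above the 3 blue points (3 h), by 2.48-fold for CCND1 and 20.8-fold for KIAA1549L.

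Among the D cyclins and their kinases, CCND1, CDK6 and CDK4 rose and CCND3 fell. CCND1 (chr11:69641087-69654474, GRCh38), which encodes cyclin D1, had 494, 577 and 494 CPM at 6 h, against 178, 265 and 186 CPM at 3 h (log2 fold change 1.31, SE 0.10, adjusted p = 7.4e-13), with 10.3% of its exonic bases overlapping an opposite-strand gene. CDK6, its kinase partner, had 292, 292 and 311 CPM at 6 h, against 113, 135 and 124 CPM at 3 h (log2 fold change 1.27, SE 0.09, adjusted p = 5.7e-13). CDK4, named after its values were seen, had 42.9, 46.2 and 38.9 CPM at 6 h, against 32.8, 35.6 and 32.6 CPM at 3 h (log2 fold change 0.34, SE 0.08, adjusted p = 0.0006). CCND3, the cyclin D3 gene, also named after its values were seen, had 71.3, 73.9 and 64.3 CPM at 6 h, against 86.1, 90.7 and 79.6 CPM at 3 h (log2 fold change -0.29, SE 0.07, adjusted p = 0.00039). Of 24 cyclins, CDK regulators and pocket proteins, 8 rose and 11 fell. The median log2 change of -0.02 changed sign under library totals (0.08) and when only the 6 libraries were fitted (0.10), and without replicate 2 at 6 h (0.08) or replicate 3 at 3 h (0.16). CCNE1, the cyclin E1 gene, had 3.27, 3.13 and 3.32 CPM at 6 h, against 7.67, 8.28 and 6.09 CPM at 3 h (log2 fold change -1.20, SE 0.17, adjusted p = 5e-07), a dip between 3 and 9 h, when it had 5.93, 7.61 and 6.63 CPM. CCNE2 had 0.545, 0.289 and 0.464 CPM at 6 h, against 1.5, 0.699 and 0.93 CPM at 3 h (log2 fold change -1.27, SE 0.39, adjusted p = 0.006) from 19 summed counts at 6 h and 42 at 3 h, and 37.1% of its exonic bases overlap an opposite-strand gene. The CCNE2 call was lost without replicate 2 at 6 h (adjusted p = 0.075) or replicate 1 at 3 h (adjusted p = 0.073). CDKN1C, the CDK inhibitor p57, had 29.1, 28.6 and 25.4 CPM at 6 h, against 66.2, 86.8 and 57.8 CPM at 3 h (log2 fold change -1.35, SE 0.11, adjusted p = 5.6e-12). CDKN1B, which encodes p27, was not called: it had 19.9, 18.2 and 15.8 CPM at 6 h, against 13.9, 17.5 and 18.1 CPM at 3 h (log2 fold change 0.12, SE 0.11, adjusted p = 0.36), after 63.8, 66.3 and 63.4 CPM at 0 h. RBL2, a pocket protein of quiescent cells, had 50.5, 49.9 and 53.9 CPM at 6 h, against 90.7, 95.3 and 92.3 CPM at 3 h (log2 fold change -0.86, SE 0.06, adjusted p = 2.3e-13).

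E2F1 was called at the edge of its spread. It had 1.87, 0.819 and 1.54 CPM at 6 h, against 0.751, 0.86 and 0.677 CPM at 3 h, with overlapping libraries (log2 fold change 0.76, SE 0.30, adjusted p = 0.027), and it had 9.87, 9.34 and 8.13 CPM at 9 h. The call was lost without replicate 1 or 3 at 6 h or replicate 1 or 3 at 3 h (adjusted p = 0.052 to 0.22), when only the 6 libraries were fitted (adjusted p = 0.086) and with no filter on low counts (adjusted p = 0.06). Among repressive and other E2F genes, E2F4 had 120.2, 132 and 113 CPM at 6 h, against 77.3, 87.8 and 69.6 CPM at 3 h (log2 fold change 0.63, SE 0.07, adjusted p = 3.3e-09). E2F5 had 12.2, 11.4 and 10.3 CPM at 6 h, against 7.26, 5.59 and 5.16 CPM at 3 h (log2 fold change 0.92, SE 0.14, adjusted p = 1.7e-06). Of 53 G1/S and licensing genes, 17 rose, 15 fell and 21 were not called, which is near the shares of all tested genes (27.8% higher and 29.8% lower), with median log2 changes of -0.32 from 0 to 3 h, 0.06 from 3 to 6 h and 0.99 from 6 to 9 h. UHRF1, which maintains DNA methylation at replication forks, had 14, 12.7 and 14.3 CPM at 6 h, against 4, 3.39 and 2.62 CPM at 3 h (log2 fold change 2.02, SE 0.14, adjusted p = 1.4e-13). ORC5, a subunit of the origin recognition complex, had 24.8, 23.5 and 23.5 CPM at 6 h, against 8.84, 9.03 and 6.68 CPM at 3 h (log2 fold change 1.53, SE 0.09, adjusted p = 4.6e-15), MCM3 of the replicative helicase had 52.8, 53.3 and 51.9 CPM at 6 h, against 23.7, 24 and 20.2 CPM at 3 h (log2 fold change 1.21, SE 0.08, adjusted p = 2.7e-14), and ORC2 rose by a log2 of 0.65.

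Other replication genes fell or were not called. ORC1 had 0.857, 0.482 and 0.927 CPM at 6 h, against 3.84, 2.37 and 2.96 CPM at 3 h (log2 fold change -2.05, SE 0.25, adjusted p = 1.8e-08). RRM2, the regulated subunit of ribonucleotide reductase, had 7.16, 6.41 and 5.1 CPM at 6 h, against 14.8, 15.9 and 13.5 CPM at 3 h (log2 fold change -1.25, SE 0.15, adjusted p = 1.6e-08). FAM111A, a protease at replication forks, had 8.26, 7.95 and 9.12 CPM at 6 h, against 32.8, 30.3 and 33.6 CPM at 3 h (log2 fold change -1.94, SE 0.09, adjusted p = 1.1e-17). CDC6, the licensing factor, had 1.01, 1.35 and 1.31 CPM at 6 h, against 1.33, 0.86 and 2.12 CPM at 3 h (log2 fold change -0.12, SE 0.30, adjusted p = 0.77). MCM2 had 11.4, 11.7 and 8.81 CPM at 6 h, against 9.51, 9.57 and 11.1 CPM at 3 h (log2 fold change 0.10, SE 0.12, adjusted p = 0.49). By 9 h CDC6 had 15.9, 16 and 12.2 CPM and MCM2 had 37.7, 39.6 and 35 CPM. For both genes the 6 h libraries overlapped those of 3 h.

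**Figure D4:**
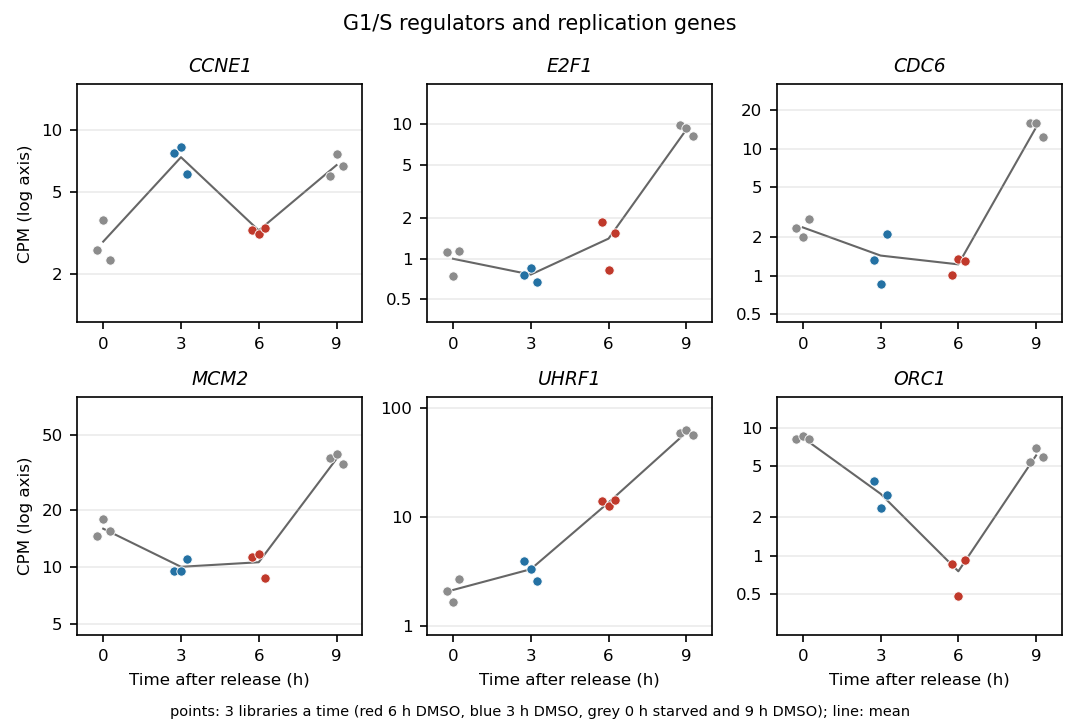
CPM on a log axis of CCNE1, E2F1, CDC6, MCM2, UHRF1 and ORC1 in each library at 0 h (starved), 3, 6 and 9 h (DMSO), with the mean as a line. UHRF1 is the panel with all 6 h points above the 3 h points, CCNE1 and ORC1 have all of them below, and the points of E2F1, CDC6 and MCM2 overlap between these times.

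Genes of G2 and mitosis, whose products are needed last in the cycle, fell in 25 of 41 cases, 19 of them by at least 2-fold, and rose in 3. TOP2A, topoisomerase II alpha, had 1.56, 1.78 and 3.32 CPM at 6 h, against 11.5, 9.41 and 14.7 CPM at 3 h (log2 fold change -2.43, SE 0.20, adjusted p = 9.2e-12), after 18.6, 19.3 and 26 CPM at 0 h. The spindle protein ASPM had 5.37, 4.29 and 3.63 CPM at 6 h, against 14.8, 15.1 and 18 CPM at 3 h (log2 fold change -1.85, SE 0.15, adjusted p = 2.8e-12). KIF23, a kinesin of cytokinesis, had 5.53, 7.57 and 5.25 CPM at 6 h, against 27.4, 17.1 and 21.1 CPM at 3 h (log2 fold change -1.78, SE 0.15, adjusted p = 1.5e-11). The risers included AURKA, a mitotic kinase, with 4.44, 4.24 and 3.55 CPM at 6 h, against 2.17, 2.04 and 2.2 CPM at 3 h (log2 fold change 0.95, SE 0.16, adjusted p = 6.1e-06). At these low levels the starved cells of the series had more of TOP2A and ASPM than either released group. The window of TOP2A (chr17:40417847-40418146, minus strand, GRCh38.p14) is shown with CCAAT, here as its reverse complement ATTGG, in capitals, since repeated CCAAT boxes are known in promoters of mitotic genes.
TOP2A: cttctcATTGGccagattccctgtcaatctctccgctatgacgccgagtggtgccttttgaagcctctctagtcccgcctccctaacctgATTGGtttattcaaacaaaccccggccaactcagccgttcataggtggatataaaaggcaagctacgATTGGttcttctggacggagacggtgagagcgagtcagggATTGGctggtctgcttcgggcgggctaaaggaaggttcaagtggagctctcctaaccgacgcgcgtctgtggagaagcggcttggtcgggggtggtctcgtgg
CCAAT on either strand stood in 77.1% of the windows of 35 G2/M genes, against 36.6% of tested genes with a window and 35.7% of all windows.

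The counts of smaller regulatory groups stand beside 27.8% higher and 29.8% lower among all tested genes. In the MYC and MAX network 6 of 11 genes fell and 3 rose. The repressors MNT and MXI1 fell: MNT had 38.3, 38.1 and 47.8 CPM at 6 h, against 165, 147 and 155 CPM at 3 h (log2 fold change -1.92, SE 0.07, adjusted p = 5.2e-20). MXI1 had 39.5, 42.6 and 37.9 CPM at 6 h, against 81.5, 82.3 and 77.7 CPM at 3 h (log2 fold change -1.004, SE 0.07, adjusted p = 4.5e-14). MAX had 71.8, 82.5 and 79.1 CPM at 6 h, against 59.9, 68 and 58.5 CPM at 3 h (log2 fold change 0.32, SE 0.07, adjusted p = 0.00024). In the Notch pathway 6 of 11 genes fell and 1 rose. The ligand JAG1 had 80.1, 80.4 and 90.8 CPM at 6 h, against 221, 179 and 231 CPM at 3 h (log2 fold change -1.33, SE 0.07, adjusted p = 1.2e-16). The target HES1 had 38.5, 40.1 and 37 CPM at 6 h, against 16.7, 16.8 and 14.5 CPM at 3 h (log2 fold change 1.27, SE 0.15, adjusted p = 1.3e-08). Of 15 cAMP and glucocorticoid response genes 8 fell and 3 rose. Cholera toxin and hydrocortisone were present throughout, and the cause of these changes was not tested. SGK1, a kinase of this list, had 43.1, 45.2 and 42.5 CPM at 6 h, against 26.9, 21.3 and 23.5 CPM at 3 h (log2 fold change 0.88, SE 0.17, adjusted p = 6.4e-05). FKBP5 had 486, 516 and 454 CPM at 6 h, against 1015, 979 and 991 CPM at 3 h (log2 fold change -1.04, SE 0.06, adjusted p = 5.3e-16). Of 11 BMP and ID genes 3 rose and 3 fell, near the shares of all tested genes, or 1 fell without replicate 3 at 6 h or replicate 1 or 2 at 3 h. The signal transducer SMAD9 had 25.1, 27.4 and 27.6 CPM at 6 h, against 8.59, 9.41 and 8.37 CPM at 3 h (log2 fold change 1.59, SE 0.09, adjusted p = 2.8e-16). Of 16 snoRNA host transcripts 9 fell; none was called higher by edgeR or DESeq2, and 0 had a rise with an unadjusted p below 0.05.

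The labelled cell type was checked against its markers. All 12 basal markers, which MCF10A cells are known to express, were measured. Of them 8 fell and 2 rose. Their summed CPM was 15759 to 16757 at 6 h and 21088 to 22988 at 3 h. KRT15, a keratin of quiescent basal cells, had 524, 599 and 525 CPM at 6 h, against 2538, 2216 and 2264 CPM at 3 h (log2 fold change -2.09, SE 0.08, adjusted p = 2.1e-19). The desmosomal cadherin DSG3 had 401, 396 and 435 CPM at 6 h, against 1073, 1049 and 1118 CPM at 3 h (log2 fold change -1.40, SE 0.07, adjusted p = 2.1e-17). KRT14 had 169, 174 and 145 CPM at 6 h, against 75.2, 97.8 and 82.6 CPM at 3 h (log2 fold change 0.93, SE 0.09, adjusted p = 1.2e-10). KRT6A had 4102, 4297 and 3884 CPM at 6 h, against 2926, 3551 and 2763 CPM at 3 h (log2 fold change 0.41, SE 0.07, adjusted p = 8e-06). Of 10 luminal markers 6 were tested, 5 of them lower (3 without replicate 2 at 3 h) and 1 higher, with a summed CPM of 982 to 1022 at 6 h and 1242 to 1342 at 3 h. ELF5, PGR and KIT had 0 counts in these 6 libraries. Of 14 mesenchymal markers 10 were tested, 8 lower and 2 higher, with a summed CPM of 965 to 1002 at 6 h and 1077 to 1137 at 3 h, and COL1A2 and COL3A1 had 0 to 2 counts in either group. Squamous differentiation genes were called lower in 3 of 13 cases and higher in none by edgeR or DESeq2, with 0 rises at an unadjusted p below 0.05 and 1 call without replicate 2 at 6 h or replicate 1 at 3 h (summed CPM 265 to 285 at 6 h and 302 to 350.2 at 3 h). The part of these small marker levels in the changes above was not tested.

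The step was then set against the steps on either side of it. The change from 3 to 6 h exceeded the change from 6 to 9 h in 2856 genes (18.1%) and was below it in 2788 (17.7%), 35.8% in all, by a test of the difference in which both steps use the same 6 h libraries. Ribosome biogenesis genes rose mainly before 6 h: 37 of 44 changed more upward from 3 to 6 h than from 6 to 9 h and none less, and chaperones did so in 15 of 22. UTP20 gave a difference of log2 changes 1.18, SE 0.09, adjusted p = 1.3e-11. Replication genes were the reverse, with 33 of 53 G1/S genes below and 4 above. CDC6 gave a difference of log2 changes -3.68, SE 0.46, adjusted p = 1e-07, and MCM2 gave a difference of log2 changes -1.70, SE 0.20, adjusted p = 2.6e-08. CCNE2 gave a difference of log2 changes -4.92, SE 0.61, adjusted p = 1.1e-07. Among falling groups, 19 of 26 immediate early genes and 19 of 28 FoxO and quiescence genes had a more negative change from 3 to 6 h. FOSL1 (difference of log2 changes -0.54, SE 0.12, adjusted p = 0.00039) and PDK4 (difference of log2 changes -1.61, SE 0.59, adjusted p = 0.032) were among them, and MYC was not called (difference of log2 changes -0.04, SE 0.18, adjusted p = 0.91).

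Against the step from 0 to 3 h, the change from 3 to 6 h was higher in 3507 genes (22.2%) and lower in 3842 (24.3%), 46.6% in all, both steps using the 3 h libraries. Immediate early genes were below in 22 of 26 cases and actin genes in 18 of 22, and cytokines were below in 14 of 14. SPRY4 gave a difference of log2 changes -8.52, SE 0.16, adjusted p = 5.3e-28. Ribosome biogenesis genes were also below in 27 of 44 cases and above in 6. Polymerase I and III genes were above in 15 of 31 and below in 6, with POLR3B (difference of log2 changes 2.32, SE 0.19, adjusted p = 8.5e-12) among those above. Of G1/S genes 23 of 53 were above and 3 below, and the list's median log2 change was -0.32 from 0 to 3 h and 0.06 from 3 to 6 h. SPRY1 (difference of log2 changes 5.77, SE 0.47, adjusted p = 6.4e-12) and DDIT4 (difference of log2 changes 5.72, SE 0.25, adjusted p = 9.3e-19) turned from falls to rises.

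Called genes also differed in their length on the genome, measured from first to last exon. The median span was 42.5 kb for the 736 genes higher by at least 2-fold, 30.9 kb for the 1615 lower by at least 2-fold and 27.5 kb for all tested genes with a position. Over genes called at any size of change it was 34.11 kb (higher) and 33.99 kb (lower), so rising and falling genes parted in span only at the larger changes. Changes of at least 2-fold were most frequent in the longest genes. Of 522 genes over 300 kb, 9.39% were higher and 24.1% lower by at least 2-fold, and their median log2 change was -0.34. Of 4214 genes under 10 kb, 4.18% were higher and 10% lower, with a median of -0.05. At any size of change, genes over 300 kb were higher in 23.6% and lower in 45.2% of cases, against 32.3% and 35.3% of genes of 100 to 300 kb. From 0 to 3 h the medians of the longest and shortest classes had been -0.28 and -0.06. For changes of at least 2-fold, median exonic length differed less, at 4677 bases for the genes higher, 4613 bases for those lower and 4566 bases for all tested genes. At any size of change it was 4950 bases (higher) and 5258 bases (lower).

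**Figure D5:**
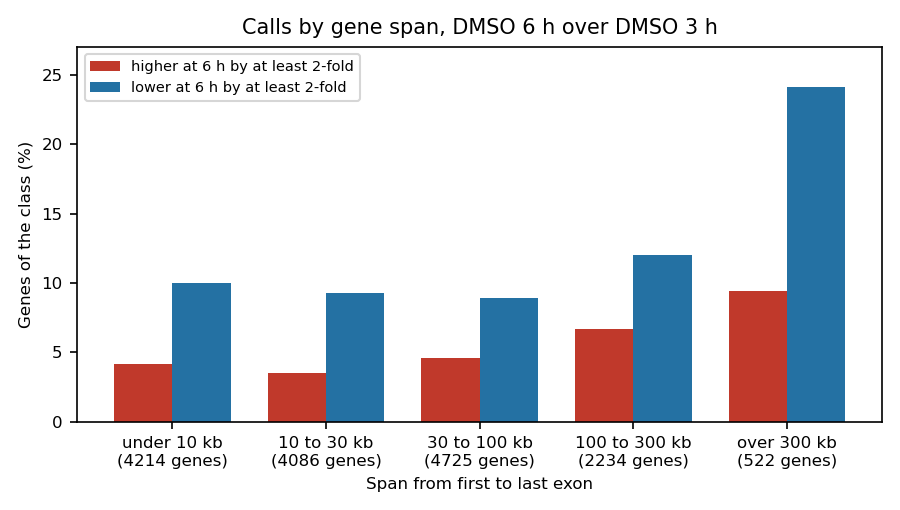
Percentage of tested genes called higher (red) or lower (blue) by at least 2-fold at 6 h against 3 h, in 5 classes of gene span. The class over 300 kb has 9.39% higher and 24.1% lower, against 4.18% and 10% in the class under 10 kb.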

How the data were processed

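Poly(A) RNA libraries were made with a stranded kit and read as single 75 nt ends, per the labels' protocols. The submitters' processing notes name FastQC 0.11.3, TopHat2 2.1.1, Bowtie2 2.2.9 and Subread 1.5.1. The deposited count values are whole-number reads per gene, made by the authors with featureCounts 1.5.1 on GENCODE 25, per the file headers, on build GRCh38.p7 per the submitters' processing notes. No strand option stands in the headers, so overlapping genes on opposite strands are uncertain. All 31 libraries in 11 groups were fitted with edgeR 4.0.16 (limma 3.58.1, R 4.3.3) by quasi-likelihood after filterByExpr and TMM scaling, leaving 20 residual degrees of freedom. Genes were called at an adjusted p below 0.05 over 15787 genes. SE is the absolute log2 change over the root of F. DESeq2 1.42.0, other scalings, filters, blocks and left-out libraries were tried as alternatives. Promoter windows are from RefSeq, matched by symbol for 11101 tested genes.

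Named genes were 17 fixed ones, the 12 largest called rises and falls whose mean log2 CPM reached 1 or more and whose libraries did not overlap, and up to 4 called members each way of 51 lists by smallest p. The members and lists were chosen with earlier results of these data known. Some genes and 1 list are not reported here. On simulated counts for the 3 to 6 h comparison, drawn for 15787 genes of which 15065 were tested, 92.5% of 67 genes changed by 1.5-fold were recovered, 100% of those changed by 2- or 4-fold, and 11 of 14865 unchanged genes were called. The changed genes were drawn from well-expressed genes only, so these rates do not cover low-count genes such as CCNE2, CDC6 and E2F1. Few genes were changed, against 57.6% called in the data, and libraries were simulated without deviations shared between same-numbered replicates.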

Additional observations from a re-analysis of the deposited data

Results flagged for a closer look

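The change from 3 to 6 h differed from the change from 6 to 9 h in 5644 genes, by edgeR's test of the difference between the 2 steps. It differed from the change from 0 to 3 h in 7349 genes by the same kind of test. Each pair of steps shares the libraries of 1 time point.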

How the results depend on the processing

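Of 2533 pairs of a named gene and an alternative setting, 2512 kept their direction and call, 21 in 5 genes lost the call, and 0 reversed. Most of these genes were named for a large change or a small p in the same fit, so keeping the call was likely from the start. List medians were less steady. Of 750 list medians by setting, 642 stayed within 1 SD between replicates of the list's mean. Another 100 moved further with the same sign, and 8 moved further and changed sign. The called genes numbered 8257 when only the 6 libraries were fitted, 8631 by DESeq2 and 8380 with no filter on low counts, of which 8180, 8598 and 8106 were among the 9092. Deviations of same-numbered libraries correlated by 0.064, 0.45 and 0.407. Replicates 2 and 3 at 6 h correlated best with their own number, while replicate 1 at 6 h did so with replicate 3 at 3 h (0.075), so the numbers were not taken as pairs for all 3, although those of replicates 2 and 3 deviated together. With the replicate block, 9408 genes were called over all 31 libraries and 9256 over the 6. The block raised falling ribosomal proteins to 47 (31 libraries) and 63 (6 libraries), against 29, and rising sterol genes to 8 (6 libraries), against 5; E2F1 was not called with the replicate block over the 6 (adjusted p = 0.07).

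Scaling by library totals gave 5775 genes with a higher change than from 0 to 3 h, against 3507. It gave 3 rising NF-kB genes, 1 squamous, 1 ribosomal protein, 9 sterol, 4 lysosome, 5 cAMP and 1 snoRNA host genes, and 7 falling ribosomal proteins, 1 synthetase, 0 transport, 0 purine, 13 interferon and 1 BMP genes. It turned the medians of laminin and integrin genes to 0.063 and of CDK regulators to 0.081. With no filter, 0 NF-kB, 3 sterol and 1 lysosome genes rose and 1 synthetase and 0 purine genes fell. With only the 6 libraries, 0 NF-kB, 2 ATF4 and 1 lysosome genes rose, 3 luminal genes fell, and medians turned to 0.101 for CDK regulators (0.103 with the replicate block) and -0.006 for G1/S genes. DESeq2 and its size factors each left 1 rising lysosome gene. A covariate for the main axis of within-group variation gave 59 falling ribosomal proteins. Removing the exon length trend gave 45, and a laminin and integrin median of 0.043. Over genes called at any size of change, spans were 34.11 kb (higher) and 33.99 kb (lower), and exonic lengths 4950 and 5258 bases. The causes were not tested.

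Leaving out each library in turn gave ranges of 4144 to 4711 genes higher and 4082 to 4423 lower at 6 h, and of 3097 to 3522 genes above the 0 to 3 h step. Rising counts ranged over 0 to 2 (NF-kB), 0 to 1 (squamous), 0 to 1 (ribosomal proteins), 2 to 4 (serine) and 1 to 2 (lysosome). Falling counts ranged over 3 to 5 (luminal), 5 to 30 (ribosomal proteins), 1 to 3 (synthetases), 0 to 1 (transport), 0 to 1 (purine), 13 to 18 (interferon) and 1 to 2 (BMP). The CDK regulator median ranged over -0.128 to 0.163. Errors were wide for genes with few counts, such as CDC6, E2F1 and CCNE2 (SE 0.30, 0.30 and 0.39). CCNE2 rested on 19 counts at 6 h.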
